A study of Mus musculus with 2 samples.

Results

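At day 5 after musculoskeletal traumatic injury (MTI), 94 nuclei of the mouse callus belonged to the skeletal lineage and held more transcripts of cartilage and bone matrix genes than of progenitor genes. They came from 1 single-nucleus RNAseq library of scraped periosteum with hematoma and callus, made from nuclei pooled from 3 or 4 mice whose genotype the labels give as C57BL6. In MTI, an open tibial fracture is combined with compression of the muscles around the bone. The study's methods give mice of 10 to 14 weeks of age and mixed sexes, and the animals of the pool cannot be told apart in the counts. The only other library of the series came from C57BL6 mice at day 1 post-fracture, from scraped periosteum with its hematoma, and entered no comparison because day and injury differ together.

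The members were found in the counts of unique molecular identifiers (UMIs), each of which stands for 1 captured RNA molecule. The series held 50433 barcodes, of which 1446 were in the MTI library with 5899407 UMIs (500 to 45740 per barcode). Nuclei were retained with 200 to 5000 genes, less than 5% of UMIs from mitochondrial genes and less than 2% from ribosomal genes, which gave 1127 nuclei (median 2364 UMIs). Skeletal nuclei had at least 10 UMIs over Col1a1, Col1a2, Col3a1, Col5a1, Postn and Pdgfra, and fewer UMIs than this over 5 macrophage genes and over 4 endothelial genes. There were 151 of them, 13.4% (11.5 to 15.5%) of the retained nuclei. The members were selected on the counts themselves, as the 94 in which Acan, Col2a1, Col9a1, Col11a1, Matn3, Hapln1 and Ibsp together exceeded Dpp4, Pi16, Pgr, Ly6a and Cd34 together. Levels of these genes in the members are therefore a description. They made up 62.3% (54.0 to 70.0%) of the skeletal nuclei and 8.34% (6.79 to 10.1%) of all retained nuclei. Intervals in parentheses are exact 95% intervals (Clopper-Pearson for shares, Poisson for UMI sums, conditional binomial for ratios) and cover counting error only. Because there was 1 library and nuclei are not replicates, no test was run, and differences are given as ratios with these intervals.

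The members, called matrix-gated nuclei below, had 638 to 20473 UMIs with a median of 5771.5 and together 680202 UMIs. In 13 skeletal nuclei the progenitor genes were ahead (progenitor-side nuclei, median 5294 UMIs), and in 44 both sums were equal (median 6246.5 UMIs), 43 of these with no UMI of either kind. The difference between the matrix and the progenitor sum was only 1 UMI in 19 members and 2 UMIs in 11, while it was 0 in the 44 equal nuclei and -1 in 7 progenitor-side nuclei. At the lower limit of the skeletal genes, 3 members had a sum of exactly 10 UMIs, and 2 nuclei with a sum of 9 would have met all other conditions.

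During fracture repair, periosteal skeletal stem/progenitor cells (SSPCs) pass through a fibrogenic state (injury-induced fibrogenic cells, IIFCs). They then become chondrocytes, which lay down the soft callus, or osteoblasts, which lay down and mineralize bone matrix. Chondrocytes depend on the transcription factors SOX9, SOX5 and SOX6 and secrete type II, IX and XI collagens with the sulfated proteoglycan aggrecan. Osteoblasts depend on RUNX2 and SP7 and secrete type I collagen with mineral-binding proteins such as bone sialoprotein, encoded by Ibsp.

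Among the genes of the rule, Col11a1, which encodes a chain of a thin fibrillar collagen, decided most of the memberships. It gave 2968 of the 4954 UMIs of the 7 matrix genes (59.9%), was detected in 87 of the 94 nuclei, and was the only detected matrix gene in 48 of them, a share of 51.1% (40.5 to 61.5%). Acan, the aggrecan gene, had a UMI in 27 nuclei, Col2a1 in 18, Col9a1 in 15, Matn3 in 14, Hapln1 in 11 and Ibsp in 10. At least 1 UMI of Acan or Col2a1 was present in 34 nuclei and of Ibsp in 10, 5 of which had both, and 55 nuclei (58.5%, 47.9 to 68.6%) had none of the 3. Without Col11a1 and Hapln1 in the rule, 41 nuclei were gathered in place of 94, or 27.2% of the skeletal nuclei, and the share was 42.4% where at least 3 matrix UMIs and 2 times the progenitor sum were required. For most members the counts therefore do not carry the name chondro-osteogenic, and they are called here by the rule that gathered them. In 309 nuclei of the same library with at least 5 macrophage-gene UMIs, outnumbering the skeletal genes (macrophage-gated nuclei, median 4408 UMIs), Col11a1 was seen in 15, Acan in 7, Col2a1 in 11 and Ibsp in 3. After every nucleus was thinned to 1000 UMIs, which left out 2 members and 4 macrophage-gated nuclei, Col11a1 was detected in 60.9% of the members and 0.328% of the macrophage-gated nuclei, Acan in 14.1% and 0.656%, and Col2a1 in 9.78% and 0.656%.

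**Figure D1:**
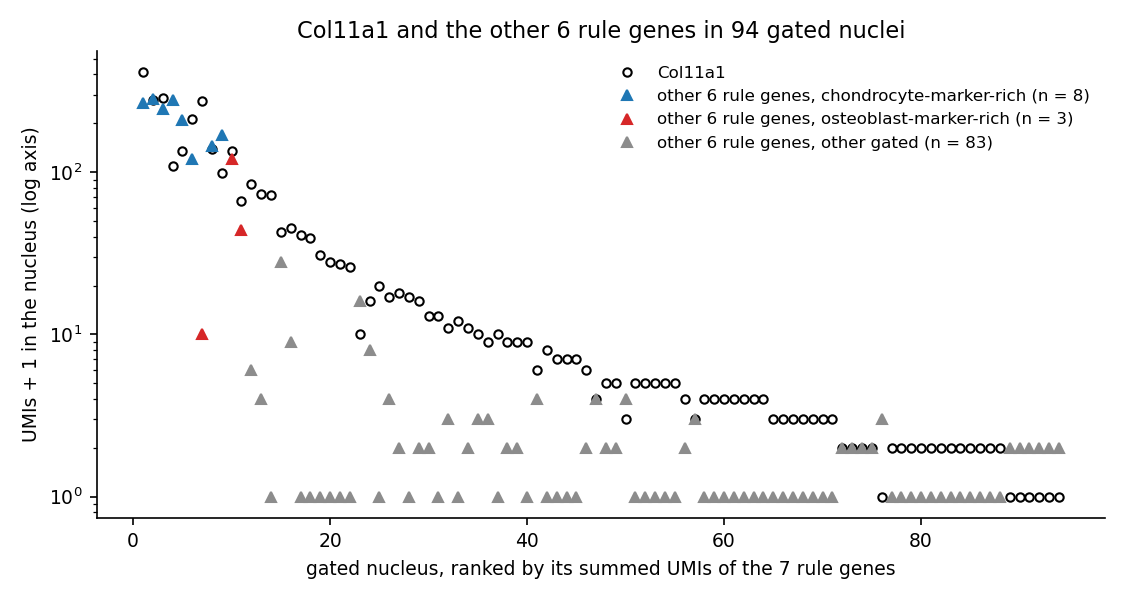
UMIs plus 1 (log axis) of Col11a1 (open circles) and of the other 6 matrix genes of the rule together (triangles, coloured by the marker content described in the text) in each of the 94 matrix-gated nuclei, ranked by the sum of all 7 genes. On the left, both kinds of symbol lie near or above 100 in the 8 chondrocyte-marker-rich nuclei, whereas in 48 of the nuclei further right Col11a1 is the only symbol above 1.

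The promoters of 3 of these genes are given as examples, Col11a1 because it decided most memberships, Acan and Ibsp because they mark the cartilage and bone ends of the set. The 250 bases before the RefSeq start (GRCm38.p6, all on the + strand, 5′ to 3′) are given in lower case, with a CCAAT box (CCAAT or its reverse complement ATTGG) or a TATA box (TATAAA or TTTATA) in capitals. They lie at chr3:114030290-114030539 for Col11a1, chr7:79052976-79053225 for Acan and chr5:104299037-104299286 for Ibsp.
Col11a1: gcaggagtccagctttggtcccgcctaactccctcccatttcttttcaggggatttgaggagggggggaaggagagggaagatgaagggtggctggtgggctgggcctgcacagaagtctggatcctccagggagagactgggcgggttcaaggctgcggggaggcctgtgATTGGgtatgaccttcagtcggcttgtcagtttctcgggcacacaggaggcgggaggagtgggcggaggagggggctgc
Acan: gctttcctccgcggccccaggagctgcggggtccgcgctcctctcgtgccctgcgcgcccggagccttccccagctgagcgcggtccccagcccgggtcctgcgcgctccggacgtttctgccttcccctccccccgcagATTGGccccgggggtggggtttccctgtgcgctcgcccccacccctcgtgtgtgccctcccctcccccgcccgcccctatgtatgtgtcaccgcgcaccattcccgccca
Ibsp: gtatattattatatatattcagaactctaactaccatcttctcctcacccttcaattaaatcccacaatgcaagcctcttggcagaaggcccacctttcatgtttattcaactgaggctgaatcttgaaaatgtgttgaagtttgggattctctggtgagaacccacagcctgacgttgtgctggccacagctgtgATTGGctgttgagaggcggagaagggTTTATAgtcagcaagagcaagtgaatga
Each holds 1 CCAAT box, in the reverse orientation, 79 to 75 bases before the start in Col11a1, 110 to 106 in Acan and 54 to 50 in Ibsp. Ibsp also holds a TATA box, reversed, at 28 to 23 bases before the start, and no marked motifs overlap. Of 27025 RefSeq promoters of this length, 34.5% hold a CCAAT box and 12.97% a TATA box. The RUNX core ACCACA (or TGTGGT), present in 14.2% of promoters, and the SOX core AACAAT (or ATTGTT), present in 9.65%, are not among the letters of these 3 windows.

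The UMIs of the matrix genes were concentrated in a few nuclei. To describe this, the chondrocyte markers Acan, Col2a1, Sox9 and Fgfr3 and the osteoblast markers Sp7, Alpl, Ibsp, Ifitm5 and Bglap were summed per nucleus, and nuclei with at least 30 UMIs of either were set apart, a limit chosen after the values had been seen. This set apart 8 chondrocyte-marker-rich nuclei (61 to 213 chondrocyte marker UMIs, 7369 to 14119 UMIs in all) and 3 osteoblast-marker-rich nuclei (38, 168 and 50 osteoblast marker UMIs, with 20473, 12577 and 5980 UMIs in all). The remaining 83 nuclei had at most 20 chondrocyte and 15 osteoblast marker UMIs and a median of 4759 UMIs. Between these sets lay no nucleus with 21 to 60 chondrocyte marker UMIs, and the nucleus nearest to the osteoblast limit from below was a chondrocyte-marker-rich one with 21. The 9 marker genes chose these sets and are left out of the ratios between them, which describe the sets and do not test them.

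**Figure D2:**
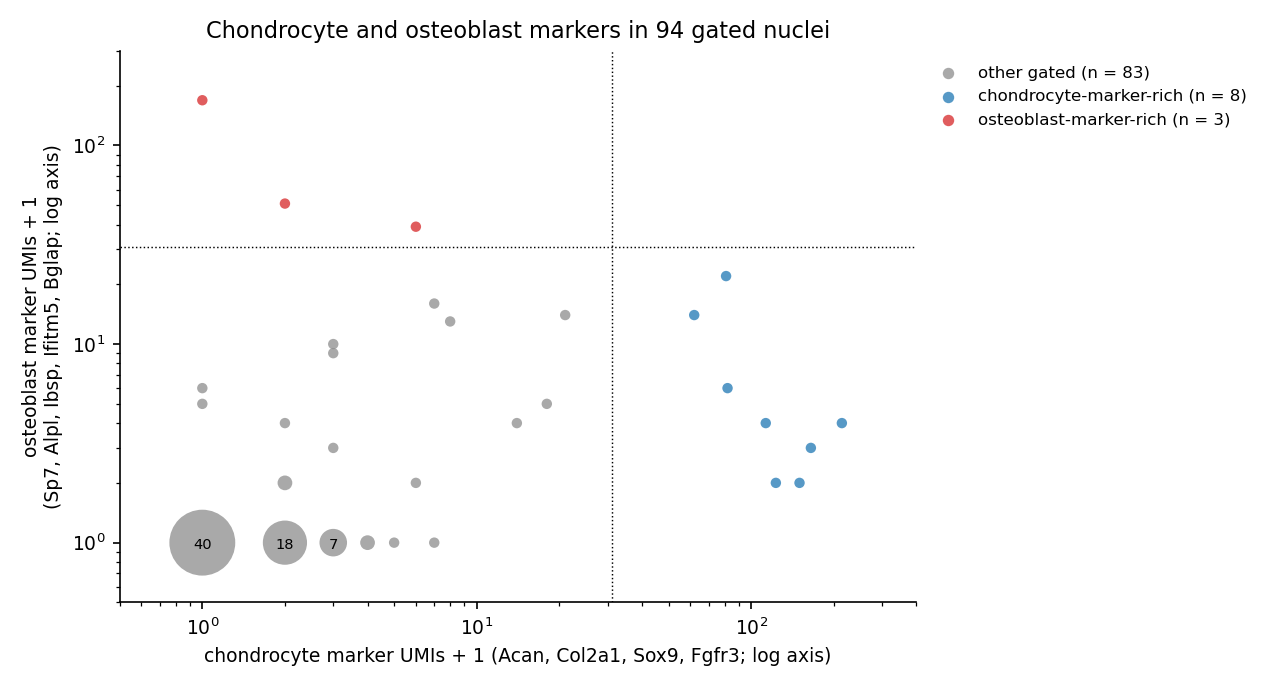
Summed UMIs plus 1 of 4 chondrocyte markers (horizontal, log axis) and 5 osteoblast markers (vertical, log axis) in the 94 matrix-gated nuclei, with dotted lines at 30 UMIs. Point area is proportional to the number of nuclei at the same place, printed where it is 5 or more, and the lower left corner, with no marker of either kind, holds 40 nuclei.

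The 11 marker-rich nuclei held 4012 of the 4954 matrix UMIs of the rule (81.0%), a share that the choice of the sets by Acan, Col2a1 and Ibsp in part fixed. Of the matrix genes that did not choose the sets, the 8 chondrocyte-marker-rich nuclei held 99.1% of the members' UMIs for Hapln1, the link protein gene, 96.3% for Col9a1 and 93.8% for Matn3, encoding matrilin 3, but 56.0% for Col11a1. A single osteoblast-marker-rich nucleus held 60.4% of the Ibsp UMIs. In the other 83 nuclei the 7 genes summed to a median of 4 UMIs and at most 89 UMIs per nucleus. Mitochondrial UMIs had a median of 0.0242% in the chondrocyte-marker-rich nuclei and 0.249% in the other 83 nuclei.

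The 8 chondrocyte-marker-rich nuclei also held genes of the chondrocyte programme that neither the rule nor the markers had used. Sox6, which encodes a partner of SOX9 at cartilage genes, had 24 to 137 UMIs per nucleus (median 44.5) in all 8. In the other 83 nuclei it had 0 to 20 UMIs with a median of 0, so that the sets did not overlap. Its summed level was 5362 UMIs per 1000000 UMIs of the population (CPM) against 186 CPM in the other matrix-gated nuclei, 28.8-fold higher (23.2 to 36.0). Col9a3, a chain of the type IX collagen that coats cartilage fibrils, had 9 to 38 UMIs (median 16) in each of the 8 and was 82.9-fold higher (45.0 to 170). It was present in 3 of the 83 other nuclei, with 9 UMIs as their highest value. Comp, a matrix protein of cartilage and tendon, had 1 to 29 UMIs (median 17) and was 18.8-fold higher (13.2 to 27.3), with an overlap since 1 of the other nuclei reached 8. Cnmd, the gene of the anti-angiogenic cartilage protein chondromodulin, had 10 to 12 UMIs in 5 of the nuclei, 6 in 1 and 0 in 2.

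Of the 12 cartilage matrix genes that could be compared (at least 20 UMIs over both sets), 9 were at least 2-fold higher and 2 at least 2-fold lower in the chondrocyte-marker-rich nuclei than in the other 83, whereas over all 5462 genes compared 13.1% were at least 2-fold higher and 21.8% at least 2-fold lower. The other 8 of the 20 genes on the list were not compared. A gene could reach the minimum through the 8 nuclei alone, so the counts describe the set and do not test it. The median ratio of the genes compared was 34.1, beside 0.931 over all genes. Matn2, a more widely expressed matrilin, was at 11.4 CPM against 125 CPM (0.0918-fold, 0.00229 to 0.528), and Cilp, of the cartilage intermediate layer, had no UMI, at most 0.475-fold the level of the other nuclei. Enzymes that build and sulfate the chains of aggrecan were part of the pattern. Papss2, which makes the sulfate donor, was 39.6-fold higher (28.2 to 57.1), the sulfate transporter gene Slc26a2 17.7-fold (10.47 to 31.2), Xylt1, which starts the chains, 8.38-fold (7.17 to 9.81), and Chst11, a chondroitin sulfotransferase, 7.54-fold (6.18 to 9.19). In this list 5 of 9 genes were at least 2-fold higher and none was at least 2-fold lower. Col27a1, a further fibrillar collagen of cartilage, was present in all 8 nuclei and 11.2-fold higher (9.47 to 13.3), and Wwp2, a ubiquitin ligase gene, was 13.5-fold higher (11.0 to 16.6).

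Genes of chondrocyte maturation varied among the 8 nuclei. Col10a1, the collagen gene of hypertrophic chondrocytes, had 37 UMIs in 1 nucleus and 0 in the other 7. That nucleus also had 94 Runx2 UMIs, 36 of Smpd3 and 16 of Panx3. Panx3, a channel gene of prehypertrophic chondrocytes and osteoblasts, had 16 UMIs in 2 nuclei, 6 in 2 more and 0 to 3 in the others. Pth1r, the receptor for PTHrP, had 2 to 7 UMIs in 6 nuclei and 17 and 19 in the other 2, and was 13.3-fold higher (8.37 to 21.7) than in the 83 nuclei. Runx2 was found in all 8, with 8 to 95 UMIs. Fn1, the fibronectin gene, ranged from 0 UMIs in 1 nucleus to 237 and 248 in 2 others, and these 2 nuclei were the ones with at least 20 UMIs of a list of 28 cell cycle genes, with 17 and 10 UMIs of Top2a. The 8 nuclei thus shared Sox6, Col9a3 and Papss2 but differed in Col10a1, Fn1 and cell cycle genes.

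Most fibrogenic matrix genes were at a lower level in these nuclei. Of 20 such genes compared, 14 were at most 0.5-fold (21.8% of all genes) and 1, Fn1, was at least 2-fold (13.1%) the level in the other matrix-gated nuclei. Because Fn1 gave 693 UMIs, the summed level of the list was 0.836-fold (0.782 to 0.892). Col8a1, an IIFC marker that encodes a short-chain collagen, had no UMI in the 8 nuclei and 775 UMIs in 57 of the 83 others, a level at most 0.0245-fold. Aspn, encoding the small leucine-rich protein asporin, had 1 UMI against 416 (0.0152-fold, 0.000384 to 0.0853), and Tnc, encoding tenascin C, 2 UMIs against 384 (0.0330-fold, 0.00398 to 0.120). Col1a1, a gene of the rule, had 0 to 10 UMIs per nucleus. Slit3 and Slit2, secreted guidance ligands, had 1 and 0 UMIs against 757 and 260, and Tgfbr3, a TGF-beta coreceptor, had 0 against 319.

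**Figure D3:**
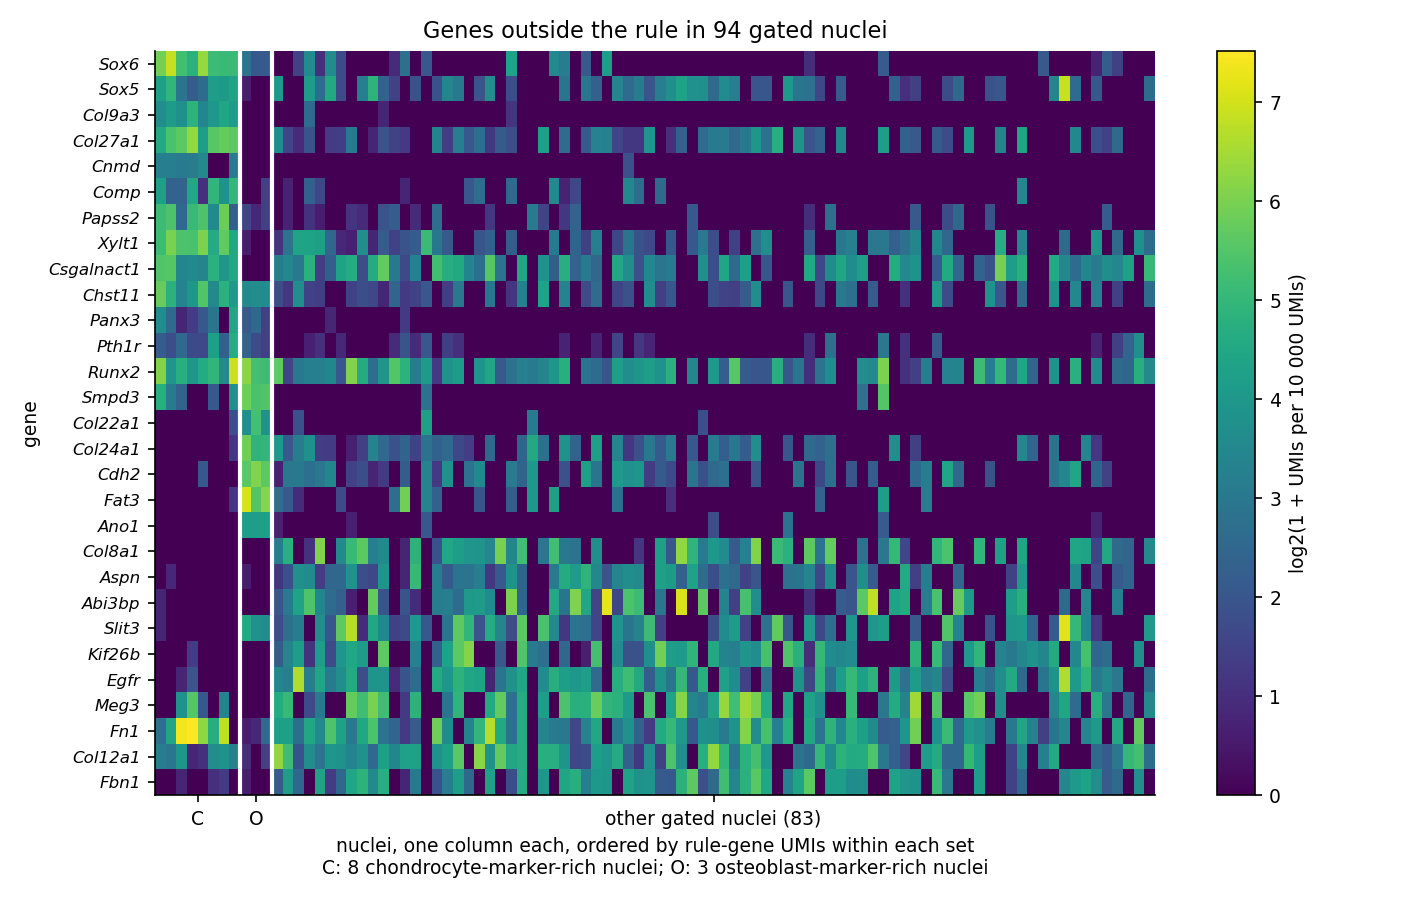
Levels of 29 genes outside the rule (vertical) in each of the 94 matrix-gated nuclei (horizontal), as log2 of 1 plus UMIs per 10000 UMIs of the nucleus. Sox6 and Col9a3 are coloured in all 8 chondrocyte-marker-rich nuclei (C), Smpd3 and Ano1 in all 3 osteoblast-marker-rich nuclei (O), while Col8a1 is dark and Aspn nearly so there, and both are coloured in many of the other 83.

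The 3 osteoblast-marker-rich nuclei were high in other genes, not all of which were scarce in the chondrocyte-marker-rich nuclei. Smpd3, a sphingomyelinase gene needed for bone mineralization, had 118, 51 and 26 UMIs, and Col22a1, a fibril-associated collagen gene, 25, 47 and 8. All 3 nuclei were high in each of these genes. Summed, Smpd3 was at 4996 CPM against 28.9 CPM in the other 83 nuclei, 173-fold higher (104 to 309), and Col22a1 was 103-fold higher (54.7 to 215). The citrate transporter gene Slc13a5 had 29, 32 and 10 UMIs, and the chloride channel gene Ano1 had 35, 22 and 11 UMIs, with none in the 8 chondrocyte-marker-rich nuclei. Cdh2, the N-cadherin gene, had 97, 84 and 29 UMIs and was 13.2-fold higher (10.9 to 15.98). Runx2 had 146, 47 and 21 UMIs and was 3.81-fold higher (3.26 to 4.44) than in the 83 nuclei. Smpd3 and Runx2 were not confined to these 3 nuclei. The chondrocyte-marker-rich nuclei had 36, 9, 6, 0, 0, 3, 0 and 10 UMIs of Smpd3, 64 in all, and 320 of Runx2 in sum.

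Of 8 osteoblast matrix genes compared, 5 were at least 2-fold higher in the osteoblast-marker-rich than in the other 83 nuclei, and 1, the tenascin gene Tnn, was at most 0.5-fold (background 15.1% higher and 19.9% lower of 5145 genes). The other 12 of the 20 genes on the list were not compared. A gene could reach the minimum through the 3 nuclei alone, so these counts describe the set and do not test it. The list was 6.33-fold higher in sum (5.75 to 6.95). Sparc, encoding the collagen-binding protein osteonectin, was 4.91-fold (3.91 to 6.12) and Col24a1, a collagen gene of developing bone, 10.1-fold higher (8.26 to 12.3). Of the 20 fibrogenic genes, 10 were at most 0.5-fold and 4 at least 2-fold, the latter including Dcn, encoding decorin (4.99-fold, 3.69 to 6.69). Dcn had 51, 1 and 11 UMIs in the 3 nuclei, so most of its sum lay in 1 of them. Col8a1, Tnc, Egfr and the imprinted long noncoding RNA gene Meg3 had no UMI in these 3 nuclei, and Meg3 was at most 0.0350-fold the level of the 83. Both marker-rich sets shared a few genes that were scarce elsewhere. Col11a2, the second chain gene of type XI collagen, had 20, 8 and 9 UMIs in the osteoblast-marker-rich nuclei and 0 to 20 in the chondrocyte-marker-rich ones, and was 47.7-fold (23.8 to 104) and 50.6-fold higher (27.0 to 105). Itga10, a collagen-binding integrin gene, was 53.9-fold (19.5 to 185) and 49.4-fold higher (19.4 to 161). With 3 nuclei of very different depth, 1 nucleus can make up most of a sum, as for the cadherin gene Fat3 (53.8% of its UMIs in all members).

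**Figure D4:**
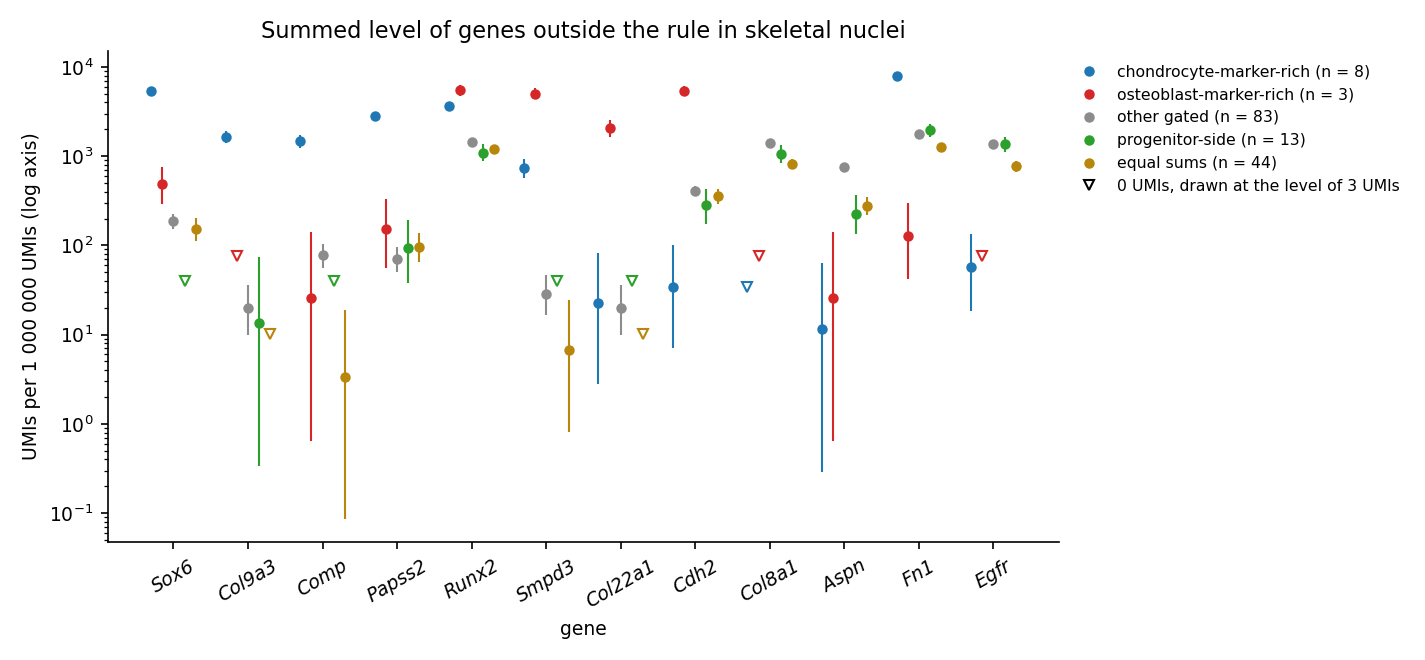
Summed levels of 12 genes outside the rule in 5 sets of skeletal nuclei, in UMIs per 1000000 UMIs of the set (log axis), with exact 95% Poisson intervals as bars and open triangles at the level of 3 UMIs where a gene had none. Sox6, Col9a3 and Comp are highest in the 8 chondrocyte-marker-rich nuclei, Smpd3 and Cdh2 in the 3 osteoblast-marker-rich nuclei, and Col8a1 and Aspn in the 83 others.

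The 83 other matrix-gated nuclei, which were set apart by having few chondrocyte and osteoblast marker UMIs, held markers of IIFCs, as the other skeletal nuclei did. Of the 5 IIFC markers, Postn, Col3a1 and Col5a1 are skeletal genes of the rule and only Aspn and Col8a1 are not. After thinning, Aspn had a UMI in 42.0% (31.1 to 53.5%) of the 83, 7.69% (0.195 to 36.0%) of the progenitor-side and 26.8% (14.2 to 42.9%) of the equal-sum nuclei. Col8a1 had one in 53.1% (41.7 to 64.3%), 30.8% (9.09 to 61.4%) and 29.3% (16.1 to 45.5%). Postn, encoding periostin, was detected in 63.0%, 76.9% and 41.5%. Because it counts toward the skeletal sum that every set had to reach, these shares cannot decide whether the sets differ in it. The cartilage matrix list of the 83 was at 2.46-fold (1.74 to 3.61) the level of the progenitor-side nuclei. Against the equal-sum nuclei it was at 1.12-fold (0.970 to 1.29), an interval that includes 1. There, 3 of its 7 genes compared were at least 2-fold higher and 1 at least 2-fold lower (background 7.59% and 7.83%). Prg4 alone gave 104 of the 291 UMIs of the list in the equal-sum nuclei. The osteoblast matrix list was at 2.06-fold (1.84 to 2.32) the equal-sum level, with 5 of 6 genes at least 2-fold higher (background 7.59%). Against the progenitor side the cartilage matrix list had 2 of 6 genes at least 2-fold higher (background 17% higher and 8.71% lower of 5376 genes). The glycosaminoglycan list was 1.93-fold (1.64 to 2.29) the progenitor-side level, with 5 of 9 genes at least 2-fold higher. It was 1.48-fold (1.37 to 1.61) the equal-sum level, with 2 of 9 genes at least 2-fold higher and none at least 2-fold lower. Sox6 was present in 19 of the 83 nuclei and, after thinning to 1000 UMIs, in 7.41% (2.77 to 15.4%) of 81, compared with 0.984% of the macrophage-gated nuclei. It had no UMI in the 13 progenitor-side nuclei (0 of 13, which allows a share of nuclei with a UMI of up to 23.1%, taking 3 counts as the limit), and was present in 9 of the 44 nuclei with equal sums, or 12.2% (4.08 to 26.2%) of 41 after thinning, an interval that overlaps that of the 83.

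Against those 44 nuclei, nearly all of which lacked both matrix and progenitor genes of the rule, the 83 had 7.59% of 6537 genes at least 2-fold higher and 7.83% at least 2-fold lower. Itgbl1, encoding a secreted integrin-like protein, was at 1504 CPM against 50.2 CPM, and had a UMI in 54 of 83 against 7 of 44 nuclei. Igf1, the growth factor gene, was at 363 CPM against 43.5 CPM (8.34-fold, 4.77 to 15.9), and Itga11, a collagen receptor gene, at 289 CPM against 36.8 CPM. Tnc was lower at 694 CPM against 1583 CPM. Of 10 hypoxia and glycolysis genes compared, 7 were at most 0.5-fold and none was at least 2-fold, among them Vegfa (45.2 CPM against 328 CPM, 0.138-fold, 0.0850 to 0.215) and Hk2, encoding hexokinase 2 (0.152-fold, 0.0756 to 0.287). Hif1a itself was 1.55-fold higher (1.22 to 1.98). Markers of other cell types differed in the same comparison. The 10 myogenic genes summed to 141 CPM in the 83 and 834 CPM in the 44 nuclei (0.169-fold, 0.129 to 0.219), the 6 further endothelial genes were 0.320-fold (0.252 to 0.405) and the 6 pericyte and smooth muscle genes 0.534-fold (0.450 to 0.633). Macrophage genes were higher in the 83, at 150 CPM against 70.3 CPM for the 5 genes of the rule (2.13-fold, 1.31 to 3.62) and 215 CPM against 83.7 CPM for 8 others (2.57-fold, 1.66 to 4.13). Macrophages are known to express Igf1 as well. The 6 Schwann cell genes were at 128 CPM against 13.4 CPM. The part of all these transcripts in the differences was not tested.

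As one set, the 94 matrix-gated nuclei were compared with the 13 progenitor-side nuclei (74684 UMIs). Of 5994 genes compared, 1130 (18.9%) were at least 2-fold higher and 542 (9.04%) at least 2-fold lower, and for 79 (1.32%) and 92 (1.53%) the whole interval lay beyond these limits. These counts depended on the settings. With at least 50 UMIs, 533 were higher and 205 lower, and with no minimum 3755 were lower. Under 0.5% mitochondrial UMIs 726 were higher, and without Hapln1 and Col11a1 in the rule 623. The 15 genes with the highest lower bounds differed in how much of their UMIs the 11 marker-rich nuclei held. Sox6 led, with 591 UMIs in 30 members and none in the progenitor-side nuclei (at least 21.6-fold higher, taking 3 UMIs over the 13 nuclei as the limit of a count of 0), but the chondrocyte-marker-rich nuclei held 469 and the osteoblast-marker-rich nuclei 19 of these UMIs, and without them the bound was 4.63-fold. Zfp385b, a zinc finger gene, had a UMI in 55 members and was 24.0-fold higher (8.18 to 117), and Kcnma1, a calcium-activated potassium channel gene, had a UMI in 64 and was 9.52-fold higher (5.75 to 17.1). Of the 656 Zfp385b UMIs, however, 451 lay in the chondrocyte-marker-rich nuclei, and the ratio was 8.23 (2.77 to 40.3) for the other 83 nuclei alone, while for Kcnma1 it was 7.85 (4.73 to 14.1). Grb14, Nhs, Fhod3, the imprinted gene Peg3 and Etl4 were found in 33 to 41 members and had no progenitor-side UMI. The chondrocyte-marker-rich nuclei held 161 of the 267 Grb14 and 127 of the 224 Peg3 UMIs, but 5 of 257 for Nhs and 0 of 235 for Fhod3, of which the osteoblast-marker-rich nuclei held 58, and without the marker-rich nuclei Grb14 was at least 4.41-fold and Nhs at least 11.3-fold higher. Smpd3 and Mamdc2 were found in 11 and 14 members, with 42.9% and 54.4% of their UMIs in 1 nucleus.

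The 15 genes with the lowest upper bounds included Sema3c, Plpp3, Aldh1a1, Anxa3 and Lbp. Sema3c, a semaphorin gene, was at 147 CPM against 1473 CPM (0.0998-fold, 0.0754 to 0.132), Plpp3, a lipid phosphatase gene, at 82.3 CPM against 1513 CPM (0.0544-fold, 0.0388 to 0.0756), and Aldh1a1, a retinaldehyde dehydrogenase gene, at 26.5 CPM against 669 CPM (0.0395-fold, 0.0217 to 0.0689). Among these, Anxa3 and Plpp3 were found in 11 and 10 of the 13 progenitor-side nuclei, but Sema3c in 6 and Aldh1a1 in 4. Of 11 progenitor genes outside the rule, 8 were at most 0.5-fold and none was at least 2-fold, beside the background of 9.04% and 18.9%. The list ratio was 0.358 (0.325 to 0.396), but 0.618 (0.525 to 0.731) where mitochondrial UMIs were limited to under 0.5%. Against the 44 equal-sum nuclei this list was at 1.12-fold (1.03 to 1.23), so that its lower level was seen against the progenitor-side nuclei, which were chosen for progenitor genes, and not against the equal-sum nuclei. Cd55, a complement regulator gene, was 0.0732-fold (0.0344 to 0.151), whereas Fbn1, encoding fibrillin 1, was 0.824-fold (0.660 to 1.04). Tgfbr2 and Tgfbr3, TGF-beta receptor genes, were 0.357-fold (0.257 to 0.504) and 0.418-fold (0.328 to 0.538).

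The cartilage matrix list was 6.53-fold higher (4.63 to 9.52) in the matrix-gated than in the progenitor-side nuclei, with 8 of 13 genes at least 2-fold higher and none at least 2-fold lower (background 18.9% and 9.04%), and 2.48-fold without the 11 marker-rich nuclei. The osteoblast matrix list was 2.18-fold higher (1.82 to 2.63), with 7 of 9 genes at least 2-fold higher. Without the marker-rich nuclei it was 1.61-fold. With the marker genes left out as well it was 1.56-fold (1.29 to 1.89), with 2 of 6 genes at least 2-fold higher, beside a background of 17%. The glycosaminoglycan list was 2.54-fold higher (2.17 to 3.00), with 6 of 9 genes at least 2-fold higher. The members were gated on cartilage and bone genes, and a gene could reach the minimum of UMIs through them alone. The counts of genes in these lists therefore describe the sets and do not test them. Csgalnact1, which extends chondroitin chains, was present in 74 members and 3.29-fold higher (2.32 to 4.84). Tnn was 10.9-fold higher (2.97 to 90.4) and present in 37 members. The fibrogenic list was close to even at 1.13-fold (1.05 to 1.21), with 3 of 20 genes at least 2-fold higher and 1 lower, close to the background shares, and this ratio was below 1 when Hapln1 and Col11a1 were left out of the rule (0.757) or the mitochondrial limit was dropped (0.896). Aspn was 2.70-fold higher (1.67 to 4.68), whereas the smooth muscle actin gene Acta2 was 0.266-fold (0.175 to 0.412), its 33 progenitor-side UMIs lying in 2 nuclei.

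**Figure D5:**
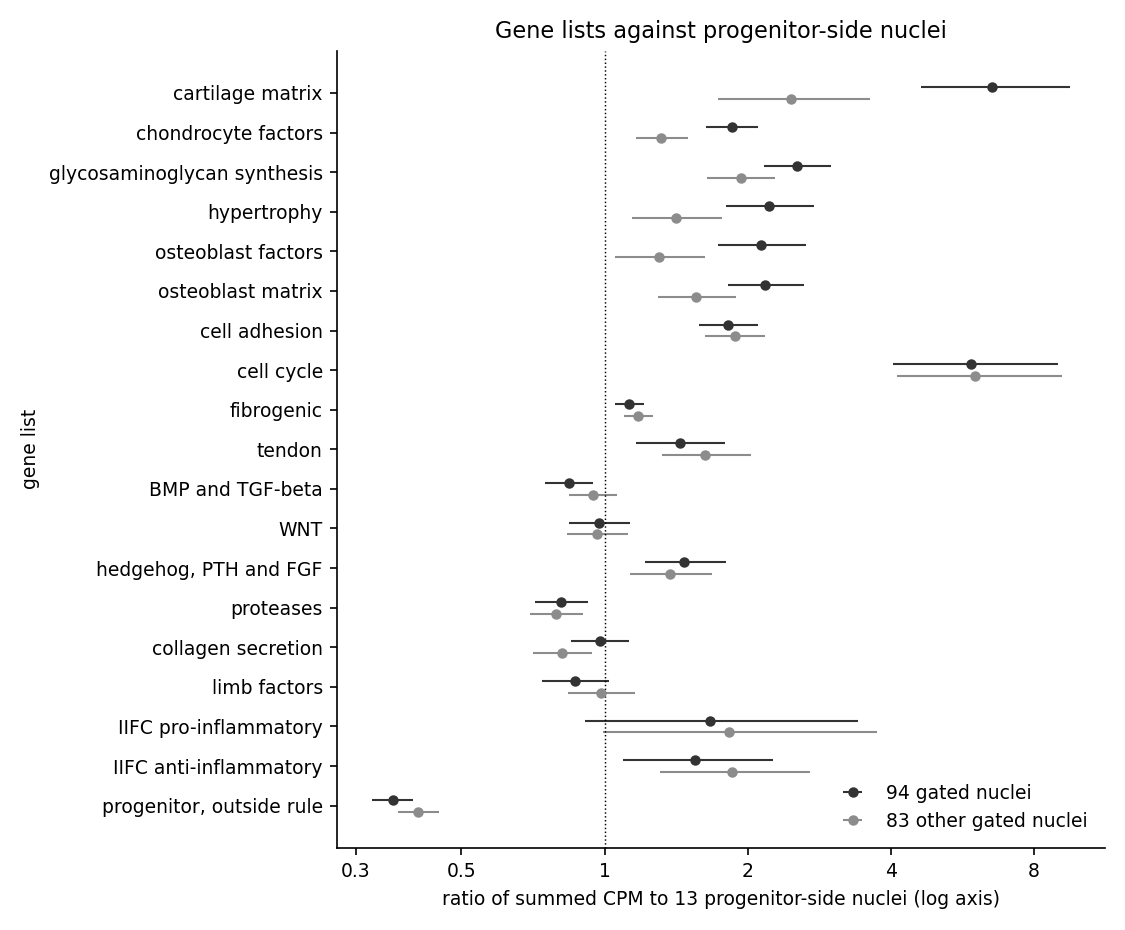
Ratio of the summed CPM of 19 gene lists in all 94 matrix-gated nuclei (dark) and in the 83 without rich markers (grey) to the 13 progenitor-side nuclei (log axis), with exact 95% intervals as bars. The 9 marker genes that set the 83 apart are left out of the lists for the grey points. The cartilage matrix list lies at 6.53 for all and 2.46 for the 83, and the progenitor list at 0.358 and 0.406.

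Signalling genes of bone repair were higher and lower in the members by gene. Among the ligands, Wnt5b was 5.76-fold higher (1.56 to 48.2) in the matrix-gated than in the progenitor-side nuclei, but 3.17-fold (0.830 to 26.9) without the marker-rich nuclei, and Bmp5 4.94-fold (1.65 to 24.3). Tgfb2 was 2.53-fold higher (1.26 to 5.94), with 52.7% of its UMIs in 1 nucleus, while Dkk2, encoding a secreted WNT inhibitor, was 0.181-fold (0.113 to 0.292), with all 31 progenitor-side UMIs in 1 nucleus. Among receptors, Pth1r had no progenitor-side UMI and was at least 3.66-fold higher, but the chondrocyte-marker-rich nuclei held 59 and the osteoblast-marker-rich nuclei 13 of its 100 UMIs, and the bound for the other 83 nuclei was 1.26-fold. Ptch1, both receptor and target of hedgehog, was 5.60-fold higher (1.88 to 27.5) in the members. Counted by list, 3 of 18 BMP and TGF-beta genes were at least 2-fold higher and 3 at least 2-fold lower, 6 and 1 of 13 WNT genes, and 2 and 1 of 10 hedgehog, PTH and FGF genes, beside the background of 18.9% and 9.04%. Of 13 protease and inhibitor genes 1 was higher, Mmp16, a membrane-type metalloproteinase gene (11.9-fold, 4.03 to 58.0, and 5.75-fold, 1.93 to 28.3, without the marker-rich nuclei, of which the osteoblast-marker-rich held 184 and the chondrocyte-marker-rich 13 of its 325 UMIs), and 4 were lower, among them Adamts5 (0.174-fold, 0.107 to 0.287).

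Inflammatory factors that the study lists for IIFCs were also measured. The 10 pro-inflammatory genes summed to 246 CPM (210 to 286) in the matrix-gated, 147 CPM (73.5 to 263) in the progenitor-side and 341 CPM (278 to 415) in the equal-sum nuclei. The largest part of the members' pro-inflammatory UMIs (69 of 167) came from Cit, which encodes citron kinase, a protein of cytokinesis. The 6 anti-inflammatory genes summed to 704 CPM (643 to 770), 455 CPM (315 to 636) and 368 CPM (303 to 444). Igf1 and Tgfb3 contributed 201 and 126 of the 479 anti-inflammatory UMIs of the members. The macrophage genes of the rule were 2.17-fold (1.35 to 3.66) and 8 other macrophage genes 2.18-fold (1.41 to 3.495) the equal-sum level in the members, and their part in this difference was not tested. The anti-inflammatory genes had 467 UMIs in the 83 nuclei, 12 in the chondrocyte-marker-rich and 0 in the osteoblast-marker-rich nuclei.

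Cell cycle genes were 5.91-fold higher (4.04 to 8.997) in the matrix-gated than in the progenitor-side nuclei, with 11 of 20 genes at least 2-fold higher (background 18.9%). This level rested on few nuclei, since at least 20 UMIs of the 28 genes were found in 2 of 8 chondrocyte-marker-rich, 0 of 3 osteoblast-marker-rich and 10 of 83 other nuclei. No progenitor-side nucleus of 13 and 8 of 44 nuclei with equal sums reached that number. The 13 progenitor-side nuclei held 27 UMIs over the list, so a gene could reach the minimum through the members alone. The count of 11 of 20 genes therefore describes the members and does not test them. Against the equal-sum nuclei the 83 were at 0.892-fold (0.813 to 0.980).

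Set against all 1033 other retained nuclei, which are mostly not skeletal, 13.5% of 12719 genes were at least 2-fold higher in the members and 23% at least 2-fold lower. The genes with the highest lower bounds were Smpd3 (42.2-fold, 29.6 to 61.9), Itgbl1 (35.5-fold, 29.4 to 43.0), Mmp16, Adamts16, Abi3bp, Col9a3, Slc13a5, Ogn, Sp7 and Epha3. Itgbl1 and Abi3bp, which encodes a collagen-binding matrix protein, were found in 58 and 53 members, whereas Smpd3, Col9a3 and Slc13a5 were each found in 11.

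Markers of other cell types were present in the members, most of them at a lower level than in all other retained nuclei. The 5 macrophage genes of the rule summed to 153 CPM (125 to 185), led by Mertk with 50 of 104 UMIs, against 3433 CPM in the macrophage-gated nuclei, and 61 of the 94 members had none. A further 8 macrophage genes summed to 182 CPM against 5458 CPM, led by F13a1 with 51 of 124 UMIs, and none of the 8 was at 0. The 6 pericyte and smooth muscle genes summed to 440 CPM (391 to 492), 1.98-fold (1.73 to 2.26) the level of all other retained nuclei, led by Pdgfrb, which fibroblasts express as well, and 6 further endothelial genes to 185 CPM, led by Cdh13. The 10 myogenic genes summed to 116 CPM with 3 at 0, led by Ttn, 6 Schwann cell genes to 110.3 CPM, 1.01-fold (0.775 to 1.29) that level, 6 neutrophil genes to 44.1 CPM, 6 osteoclast genes to 41.2 CPM, 6 lymphoid genes to 17.6 CPM, 6 adipocyte genes to 16.2 CPM and 6 erythroid genes to 2.94 CPM with 5 at 0. The chondrocyte-marker-rich and osteoblast-marker-rich nuclei had no UMI of the 4 endothelial genes of the rule. Against the 13 progenitor-side nuclei, the 8 other macrophage genes were 0.358-fold (0.247 to 0.530), with their 38 progenitor-side UMIs in 3 nuclei, the pericyte and smooth muscle genes 0.684-fold (0.503 to 0.948) and the myogenic genes 4.34-fold (1.16 to 36.4). The part of these transcripts in the ratios above was not tested.

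The same conditions found no member in the day 1 post-fracture library, which had 5410 nuclei within the filters, a median of 382 UMIs and 5 skeletal nuclei (0 of 5410, which allows a share of up to 0.0555%). This is given without a comparison. The libraries shared 33 barcode sequences, 1 of them of a member.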

How the data were processed

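Single-nucleus RNAseq counts of 1 library (day 5 post-MTI) were used, and those of the day 1 library only for the number of nuclei under the same conditions. The authors counted reads with Cell Ranger 7.0.1, intronic and exonic reads included, and deposited UMI counts for each gene in each barcode, not normalized. The labels name a human reference, but the submitters' processing notes give mm10 and all 32285 gene identifiers are mouse. Because introns are counted and were not corrected for gene length, ratios of levels were computed within a gene or list, and shares of UMIs that a gene gives to a sum do not rank expression.

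The filters of the study's methods and the conditions of the report were applied. Nuclei annotated as myogenic by the study were not removed. UMIs were summed over each set of nuclei and divided by the total of the set (CPM). Ratios of single genes were computed for genes outside the conditions with at least 20 UMIs over both sets, and a set with 0 UMIs was taken at 3 UMIs for bounds. A gene could reach this minimum through either set alone, so counts of genes past 2-fold describe the sets and do not test them. Ratios of list sums were also computed for the macrophage genes of the conditions. Scrublet in scanpy 1.11.5 marked 3 of 1127 nuclei, a share at which the caller cannot be taken to have found the doublets, so in effect none were removed. The genes named are those of the conditions, those of 37 gene lists, and the 15 highest and 15 lowest by interval bound against the progenitor-side nuclei and 10 highest against all other retained nuclei, predicted genes excepted. Members and lists were chosen with earlier results of these data known, and the marker-rich sets after their values were seen. Genes leading between the marker-rich sets were also named after their values were seen. The symbols Ero1a, Leprel1 and Lepre1 of the lists matched no gene. A gene of the lists is not reported here. Promoters come from RefSeq (GRCm38.p6). The scripts ran under scipy 1.17.1, pandas 2.3.3, numpy 2.4.6 and Python 3.11.15 and were checked on simulated data. Alternatives changed the limits, the rule genes, the depth and the minimum of UMIs.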

Additional observations from a re-analysis of the deposited data

Results flagged for a closer look

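Outside the filters, 42 barcodes met all other conditions, and 7 of these had at least 30 chondrocyte marker UMIs, beside 8 among the members. They stood out because the filters kept them out of the comparisons above, and they entered only where a filter was dropped as an alternative. Of the 7, 5 had 5.45 to 15.1% mitochondrial UMIs, 1 had 5509 genes and 1 had 2.06% ribosomal UMIs. The barcode with 5509 genes had 45 UMIs of the endothelial genes against 46 of the skeletal genes, and whether it was mixed was not tested. Sox6 had a UMI in all 7 (2 to 96 UMIs) and a level of 4489 CPM against 5362 CPM in the 8 members, Comp was at 2519 CPM against 1463 CPM, and Col1a1 at 1981 CPM against 389 CPM. Col10a1 had 116 UMIs, 85 of them in 1 barcode, and Ibsp 114, of which 110 were in 1 barcode. The barcode with 2.06% ribosomal UMIs also had 120 osteoblast marker UMIs.

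A further 2 retained nuclei had 89 and 48 chondrocyte marker UMIs and matrix sums of 240 and 88 UMIs but only 3 and 8 skeletal gene UMIs, under the minimum of 10. They were counted among the other retained nuclei. With both kinds, 17 barcodes of the library had at least 30 chondrocyte marker UMIs, of which the 94 members held 8.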

How the results depend on the processing

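Over 17 settings and 10 results, 138 values were recomputed; 108 moved by less than their interval or by less than 1.5 times for counts of genes or nuclei, 28 moved further and 2 changed direction. Without Hapln1 and Col11a1 in the rule, the members numbered 41, 27.2% of the skeletal nuclei, with 623 genes at least 2-fold higher, an osteoblast matrix ratio of 2.66, a fibrogenic ratio of 0.757, below 1, and 165 CPM of pro-inflammatory genes. The share was 42.4% where the matrix sum had to be at least 2 times the progenitor sum and at least 3 UMIs. Under 0.5% mitochondrial UMIs, 61 members remained, with 726 genes higher and a progenitor list ratio of 0.618. Without a mitochondrial limit, a setting added after the data were seen, the osteoblast matrix ratio was 1.81, the fibrogenic ratio 0.896, below 1, the progenitor ratio 0.410 and the anti-inflammatory level 633 CPM. Without an upper gene limit these were 1.75, 1.32, 0.426 and 597 CPM, and the pro-inflammatory level 290.2 CPM. The progenitor ratio was 0.317 as a mean of per-nucleus CPM and 0.317 after thinning to 1000 UMIs, which gave 293 CPM of pro-inflammatory and 772 CPM of anti-inflammatory genes. With no minimum of UMIs, 3755 genes were at least 2-fold lower; with at least 50 UMIs, 533 were higher and 205 lower. Without the 11 marker-rich nuclei, also a setting added later, the cartilage matrix ratio was 2.48, the osteoblast matrix ratio 1.61, the progenitor ratio 0.406 and the anti-inflammatory level 843 CPM. The causes were not tested. Removing the nuclei that Scrublet marked left 93 members.

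No paired analysis was possible because each condition had 1 library. Animals were pooled, so no spread between mice can be given, and 13 progenitor-side nuclei limit every ratio to them, with wide upper bounds for genes of few UMIs. The 3 osteoblast-marker-rich nuclei describe those nuclei only.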
